A study of Drosophila melanogaster with 3 samples.

Results

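The genes described here are Drosophila melanogaster genes that the deposited tables list only by a CG number, and whose RNA was at least 2-fold higher in larvae carrying an RNAi hairpin against Aac11 than in their control. A member has a symbol made of CG and digits, a mean of at least 1 FPKM over the control and RNAi libraries, and a log2 ratio of at least 1. That ratio divides the RNAi level by the control level after 1 FPKM has been added to both. Members were thus chosen by the FPKM values of these 2 libraries, and their ratios are given as a description. FPKM is fragments per kilobase of transcript, scaled to library size, so levels can be set side by side between genes. The rule leaves out CG42345, which passes it. It gave 216 members out of 13990 genes in the tables, 7918 of which have only a CG number.

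Each of 3 groups had 1 library. The control library (label Act) carries the Actin5C-Gal4 driver, which is active in most tissues, and no hairpin in its label. The RNAi library (label Act-Aac11-IR) adds a UAS hairpin against Aac11, the fly ortholog of the apoptosis inhibitor API5. The last library is labelled enGFP+Yki+Aac11-IR and is called the Yki library here. Its label names the Aac11 hairpin too, together with Yki, the symbol of the Hippo pathway co-activator Yorkie. That label holds enGFP and not Act, so by label this library differs from the RNAi library in more than Yki. Both Act groups were pools of 10 to 20 wandering larvae, raised at 25 °C with 12 hours of light, sorted for GFP and ground whole. The same protocol is given for the Yki library, without a number of animals. All 3 libraries are labelled as wing disc cells, whereas the protocol describes whole larvae. Of 7 wing disc genes all 7 were measured, with a summed level of 140 FPKM in control larvae, 195 FPKM in RNAi larvae and 462 FPKM in the Yki library. For 6 fat body genes the summed level was 12787, 8398 and 27.5 FPKM in the same order, so fat body RNA was abundant in the Act libraries and scarce within the separately normalized Yki library.

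With 1 library a group no difference has a replicate check, and no p-value or standard deviation is given. Depth read from the FPKM steps was near 6000000 fragments in control larvae, 30950000 in RNAi larvae and 17660000 in the Yki library, so low control values are the least precise. The effective length used here is 200 nt shorter than the transcript. On an effective length of 1 kb, 3 fragments correspond to 0.5 FPKM in control larvae, 0.0969 FPKM in RNAi larvae and 0.170 FPKM in the Yki library. Aac11 itself (chromosome 2L from 17474912 to 17477888, minus strand, Release 6 genome, dm6) measured 150 FPKM in control larvae, 78.1 FPKM in RNAi larvae and 117 FPKM in the Yki library. Its log2 ratio was -0.93, and the exact 95% counting interval of the ratio without a pseudocount ran from -1.01 to -0.87 on the log2 scale, so its RNA was lower but not lost in RNAi larvae. In bulk RNA, fewer cells of a type and less RNA per cell cannot be told apart.

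A CG number is the identifier that the fly genome annotation gives to a predicted gene, and a gene keeps it as its symbol until someone has described and named it. Wandering larvae stand at the end of larval life, when pulses of the steroid hormone ecdysone prepare the animal for pupariation. Their epidermis, tracheae and imaginal discs then make and modify chitin-based cuticle, and many of the small secreted proteins laid down or carried at this time come from genes with only a CG number.

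Over the Act libraries 11330 genes reached the minimum mean of 1 FPKM and are called kept. Of these, 419 were at least 2-fold higher in the RNAi library, or 3.7%, and 1921 at least 2-fold lower, or 17%. With the upper quartiles of the libraries set equal, which moved the median log2 ratio of all kept genes by 0.29, the split was 819 higher and 1704 lower, so that 32.5% of the called genes were higher instead of 17.9%. Of the 6352 kept genes with only a CG number, 217 were higher, or 3.42%, including CG42345. Of the 4978 kept genes with a name, 202 were higher, or 4.06%. These percentages come from the values that chose the members and describe the lists only. The 216 members were 51.6% of all genes called higher, while genes with only a CG number were 56.1% of all kept genes. Lower calls were more frequent among them, at 24.6% of kept genes with only a CG number. A testis list moved with those lower calls, since 16 of its 19 genes were lower and its summed level was 5134 FPKM in control larvae and 1341 FPKM in RNAi larvae. Whether this bears on the members' ratios was not tested.

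The members' log2 ratios ran from 1.00 to 5.43 with quartiles at 1.17, 1.54 and 2.22. There were 63 members at a log2 ratio of 2 or above and 21 at 3 or above, and 105 lay under 1.5. The median over all kept genes was -0.03. At the limit, CG15207 (1.29 and 3.60 FPKM in the control and RNAi libraries), CG17025 (0.412 and 1.83 FPKM) and CG34244 (2.48 and 5.98 FPKM) fell just inside, with log2 ratios of 1.002, 1.002 and 1.004. Just outside lay CG9743 (3.02 and 7.04 FPKM), CG10140 (3.86 and 8.64 FPKM) and CG13183 (13.4 and 27.4 FPKM), with log2 ratios of 0.999, 0.989 and 0.986. No gap in the values separates members from the genes just outside.

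**Figure D1:**
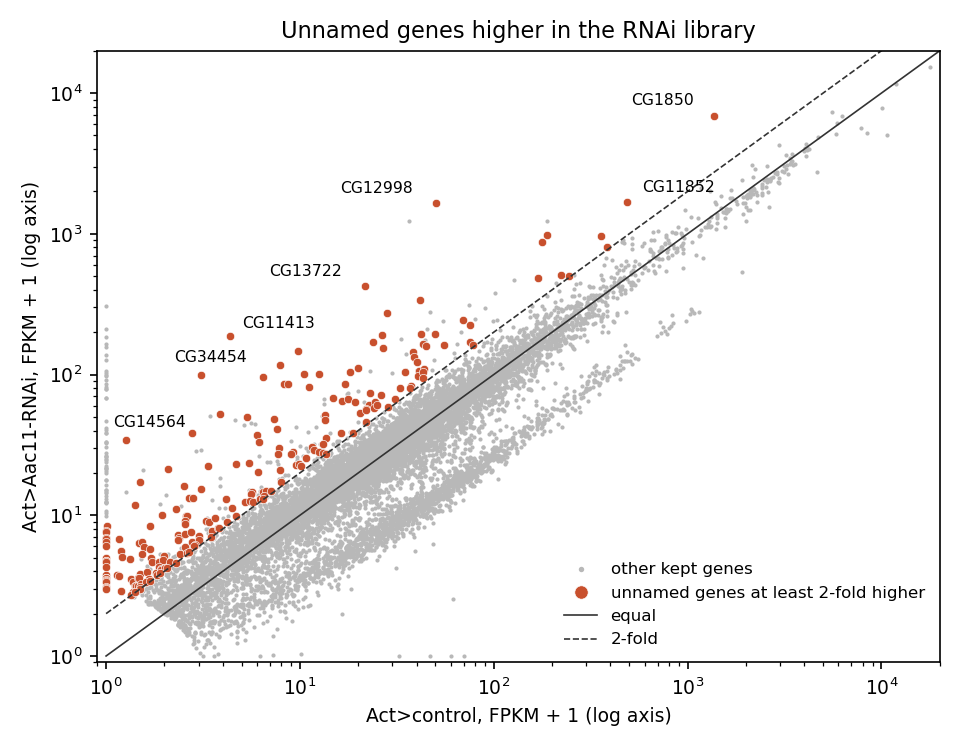
FPKM + 1 of every kept gene in the control library (horizontal, log axis) and in the RNAi library (vertical, log axis), with the 216 members in orange and the other kept genes in grey. The solid line marks equal levels and the dashed line the 2-fold limit that chose the members, and CG1850 is the highest orange point at 1369 and 6886 FPKM.

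The most abundant members are few and carry most of the RNA. The summed level of all members was 5678 FPKM in control larvae, 23881 FPKM in RNAi larvae and 1486 FPKM in the Yki library. CG1850 alone made up 28.8% of the sum in the RNAi library, and the 7 highest members made up 57.9%. Without CG1850 the sum was 4309 FPKM in control larvae and 16994 FPKM in RNAi larvae.

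CG1850, a gene with a single exon on chromosome 2R (7258867 to 7261269, minus strand), measured 1369 FPKM in control larvae, 6886 FPKM in RNAi larvae and 1.87 FPKM in the Yki library. It moved from rank 116 to rank 5 among all genes of the Act table. Its log2 ratio was 2.33, and the exact binomial 95% interval of the log2 ratio, taken from fragment counts without a pseudocount, ran from 2.31 to 2.35. This interval and the ones that follow cover counting error only.

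CG11852, now named Jhbp7, measured 487, 1677 and 1.83 FPKM in the order control, RNAi, Yki. Jhbp genes belong to the family of takeout and of the juvenile hormone binding proteins, a family of secreted carriers of small lipophilic molecules that is best known from the hemolymph of moths. CG2016 (Jhbp2), of the same family, measured 176, 870 and 13.0 FPKM in the same order. By level, Jhbp7 went from rank 238 to rank 91 in the Act table and Jhbp2 from rank 739 to rank 156.

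CG12998 on chromosome X (17218667 to 17219787, plus strand) combined a high level with a large ratio, at 49.2 FPKM in control larvae, 1654 FPKM in RNAi larvae and 0.279 FPKM in the Yki library. Its rank in the Act table went from 2978 to 93. CG15213 on chromosome 3L (5132796 to 5133220, minus strand) measured 187, 976 and 1.10 FPKM in the same order, a log2 ratio of 2.38. Neither gene has a name in the annotation used, so no role is given for either.

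The other members of highest level in the RNAi library lay nearer to the 2-fold limit. CG6426 (355, 963 and 6.65 FPKM in the order control, RNAi, Yki) had a log2 ratio of 1.44 with an interval from 1.35 to 1.53. CG5059 measured 383, 812 and 98.0 FPKM, and its log2 ratio was 1.08. It is now named BNIP3, after a mammalian protein of the outer mitochondrial membrane that takes part in the removal of mitochondria by autophagy, and it was the member of highest level in the Yki library. CG11905 measured 168, 486 and 21.0 FPKM. CG5399 measured 220, 511 and 1.23 FPKM, and CG5171 measured 244, 497 and 1.09 FPKM. These last genes were already abundant in the control.

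**Figure D2:**
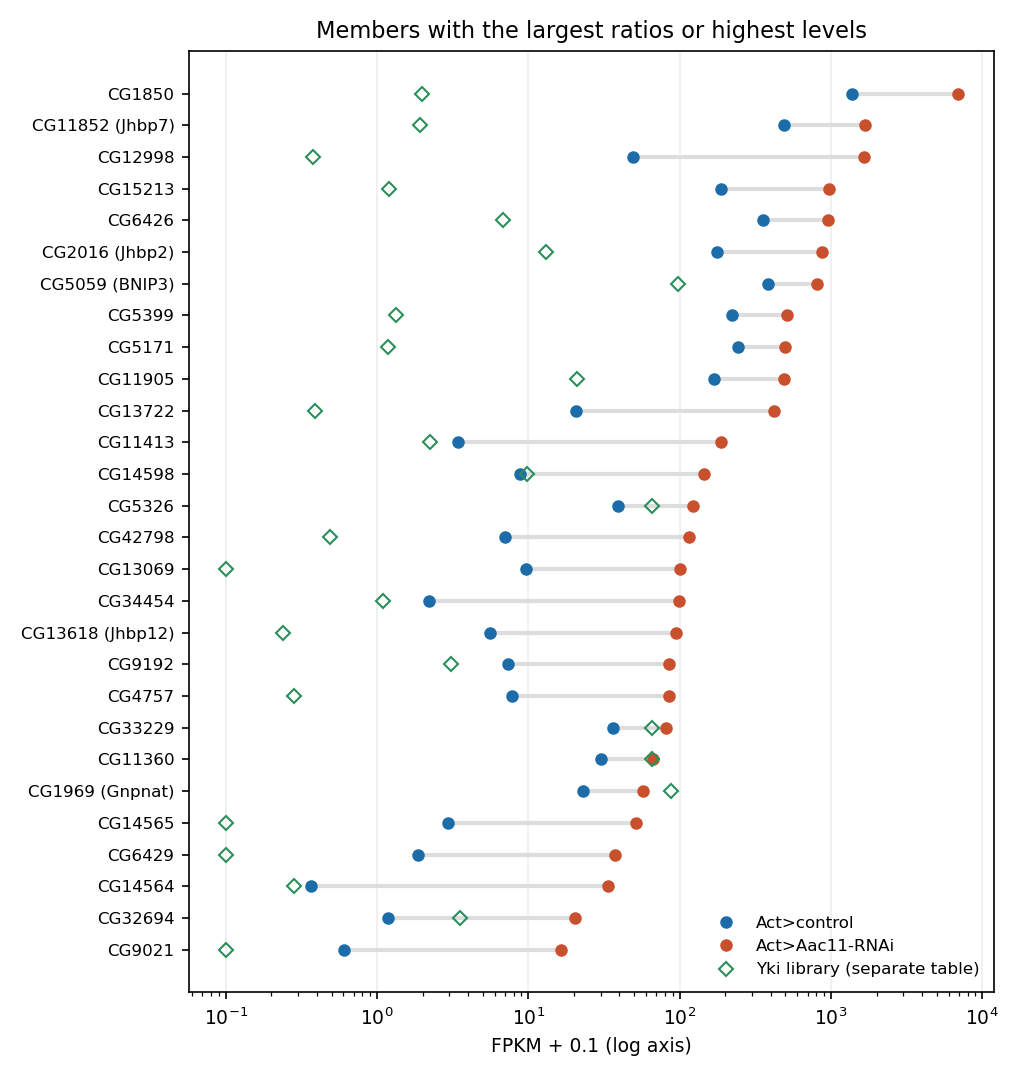
FPKM + 0.1 (log axis) of the members with the largest ratios or the highest levels, 1 gene a row, in the control library (blue), the RNAi library (orange) and the Yki library (open diamonds, from a separately normalized table). The grey bars join the control and RNAi values. CG1850 is at the top with 1369 and 6886 FPKM, and the diamonds lie to the left of both circles for most rows, with CG1969 at 87.0 FPKM as an exception.

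The largest ratios belonged to genes that were low in the control. CG11413 on chromosome 2R (24536190 to 24536791, plus strand) had the largest, at 3.35 FPKM in control larvae, 186 FPKM in RNAi larvae and 2.14 FPKM in the Yki library. Behind these levels lay about 8 fragments in the control and 2319 in the RNAi library, and the interval of the log2 ratio ran from 4.83 to 7.03. CG11413 shares exon bases with CG4622, which measured 22.1, 18.3 and 21.1 FPKM in the 3 libraries. The kit used does not mark strand, so fragments in the shared bases cannot be told apart. The partner stayed within 2-fold between the Act libraries.

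CG34454 on chromosome 3L (231681 to 232350, minus strand) measured 2.10, 98.4 and 1.00 FPKM in the order control, RNAi, Yki, from 5 fragments in the control and 1228 in the RNAi library. CG14564, also on 3L (21757157 to 21758046, plus strand), measured 0.267, 33.5 and 0.182 FPKM. Its control value rests on 1 fragment, and the interval of its log2 ratio accordingly ran from 4.63 to 12.42. The size of this ratio is therefore known only from below.

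CG13722 on 3L (4485159 to 4490963, minus strand) was better measured in the control. It stood at 20.6, 422 and 0.292 FPKM, from 297 fragments in the control and 31366 in the RNAi library, and its log2 ratio of 4.29 had an interval from 4.19 to 4.53. CG13618, now Jhbp12, lies on 3R (24524794 to 24527533, plus strand) and measured 5.47, 94.5 and 0.138 FPKM. Its log2 ratio was 3.88, with an interval from 3.56 to 4.71, and it was the family member with the largest ratio.

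Further genes of large ratio were CG14598 (8.76, 145 and 9.66 FPKM in the order control, RNAi, Yki), CG42798 (6.86, 116 and 0.390 FPKM) and CG6429 (1.77, 37.5 and 0 FPKM). CG14565 measured 2.85, 51.4 and 0 FPKM and CG9021 measured 0.504, 16.3 and 0 FPKM. CG9192 measured 7.26, 85.4 and 3.0 FPKM, CG4757 measured 7.65, 84.6 and 0.181 FPKM, and CG32694 measured 1.08, 20.4 and 3.46 FPKM. CG13069 (9.53, 101 and 0 FPKM) overlaps the exons of CG4950, which stood at 57.1 and 72.6 FPKM in the Act libraries. Of these 9 genes, CG14598 was the only one at more than 5 FPKM in the Yki library.

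Many of the smaller members rest on control values close to 0. In the control, 20 members were listed at 0, and these measured 2.01 to 6.70 FPKM in the RNAi library. With them, 68 members were under 1 FPKM in the control, while 79 had 1 to 10 FPKM and 69 had at least 10 FPKM. Among kept genes with only a CG number, the members were 68 of the 133 under 1 FPKM in the control, or 51.1%. They were 4.55% of those at 1 to 10 FPKM, 1.54% of those at 10 to 100 FPKM and 1.53% of those at 100 FPKM or above. The first share follows from the filter on the mean, since a gene under 1 FPKM in the control is kept only if its RNAi level exceeds 1 FPKM.

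Fragment counts could be read back for 90 members, those with a single annotated transcript longer than 400 nt. Their median was 8 fragments in the control and 281.5 in the RNAi library, and 25 of them had fewer than 3 in the control. Since the same values chose these genes, their intervals describe counting precision only. The 95% interval of the ratio included equality for CG33795, CG30062, CG10853, CG15550 and CG13217, all of them under 1 FPKM in the control.

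The Yki library was not used by the rule. It gives the members' levels in another genotype that carries the Aac11 hairpin, with enGFP and Yki in its label and not Act. It comes from a separately normalized table, so its levels are not divided by those of the Act libraries. Of the 216 members, 120 were under 1 FPKM there, or 55.6%, 57 of them were listed at 0, and 36 had at least 10 FPKM. The median level was 0.635 FPKM, compared with medians of 3.17 FPKM in control larvae and 12.9 FPKM in RNAi larvae. Of the other 6136 kept genes with only a CG number, 41.5% were under 1 FPKM in the Yki library, with a median of 5.70 FPKM. The groups were not matched in level, with median Act means of 8.53 FPKM for members and 19.1 FPKM for the others. The 68 members under 1 FPKM in the control were kept only through their RNAi level, so the filter contributes to the contrast.

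The other genes are a mixture. Of the 4571 kept genes with only a CG number that lay within 2-fold, 25.1% were under 1 FPKM in the Yki library, and of the 1564 lower genes 89.5% were. The members lay between those groups. Of the 202 named genes that were higher, 47.0% were under 1 FPKM. Of the 97 members with at least 20 FPKM in the RNAi library, 32 were under 1 FPKM in the Yki library, or 33.0%. Of the 2136 genes within 2-fold that passed the same minimum it was 213, or 10.0%. These were not matched in level, with a median of 42.2 FPKM in RNAi larvae compared with 79.5 FPKM for the members. For the mean over the Act libraries the medians were 43.6 FPKM and 47.8 FPKM. The minimum was set on the library in which the rule makes members high, so nothing is read from this difference. Counted the other way, the higher genes were 4.5% of the kept genes with only a CG number under 1 FPKM in the Yki library, and 2.63% of those at 1 FPKM or above. With 1 library a group, these shares have no test.

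**Figure D3:**
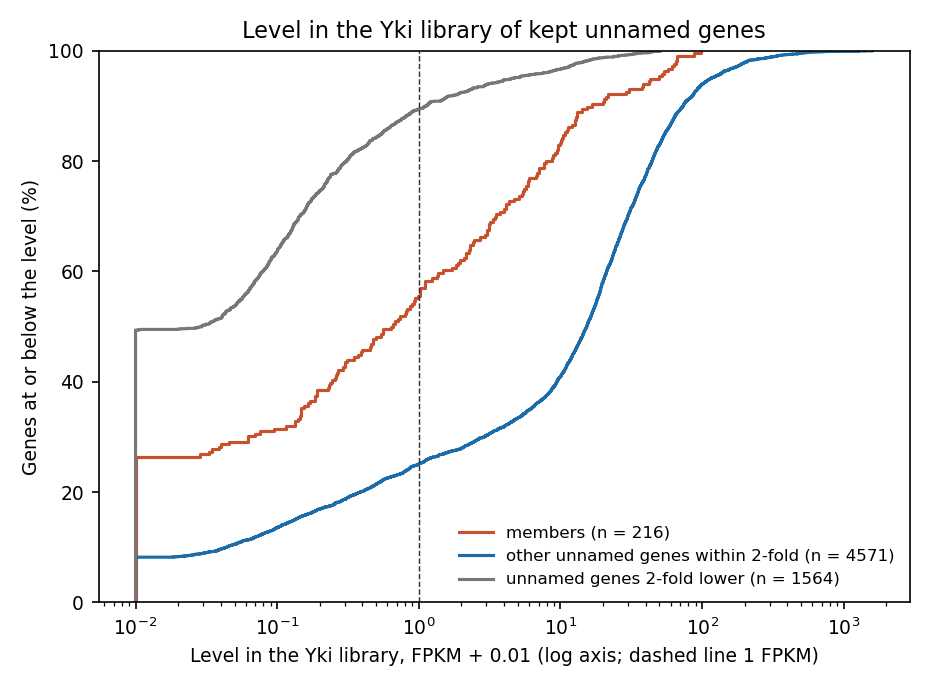
Cumulative share of kept genes with only a CG number (vertical, percent) at or below a given FPKM + 0.01 in the Yki library (horizontal, log axis), for the 216 members, for the 4571 genes within 2-fold and for the 1564 lower genes. At the dashed line, 1 FPKM, the members' curve stands at 55.6%, between 25.1% for genes within 2-fold and 89.5% for lower genes.

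The 5 members highest in the Yki library had log2 ratios from 1.08 to 1.63. After BNIP3 came CG1969, now Gnpnat, at 23.0 FPKM in control larvae, 57.3 FPKM in RNAi larvae and 87.0 FPKM in the Yki library. It encodes glucosamine-phosphate N-acetyltransferase, an enzyme on the route to UDP-N-acetylglucosamine, the building block of chitin. CG11360 measured 30.1, 66.6 and 66.0 FPKM and CG5326 measured 39.0, 123 and 65.9 FPKM. CG33229 measured 36.3, 81.6 and 66.0 FPKM, and its exons overlap the noncoding gene lncRNA:CR42862. Larger ratios also occurred among the 36 members with at least 10 FPKM there. Examples are CG10625, now frm, at 52.4 FPKM with a log2 ratio of 2.72, and Vajk3 at 49.4 FPKM with 2.37. At the other end, CG12998, CG13722 and CG8736 (40.5, 340 and 0.302 FPKM) were above 300 FPKM in the RNAi library and under 1 FPKM in the Yki library.

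A current name was found for 40 members, 156 still carry only their CG number, and the numbers of 20 occur only among the older names of another entry. For 3 of these 20 that entry is a noncoding gene of the same number (lncRNA:CR32368, lncRNA:CR32027 and asRNA:CR17025), and for the others it is another gene. The 40 had median levels of 5.60, 13.9 and 5.19 FPKM in the order control, RNAi, Yki, and 10 of them were under 1 FPKM in the Yki library. Among the 40, chosen for their known roles after the values were seen, are the following genes. CG3244, now schlaff (slf), needed for the cohesion of the larval cuticle, measured 44.0, 159 and 12.1 FPKM. CG9990, now snustorr (snu), an ABC transporter needed for the barrier of the cuticle, measured 17.8, 37.5 and 28.8 FPKM. CG13188, now expansion (exp), which acts in the control of tracheal tube size, measured 6.82, 29.2 and 7.63 FPKM, and its exons overlap those of the proteasome regulator gene PI31.

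CG2781, now Elovl7, a fatty acid elongase by its name, measured 40.2, 105 and 1.37 FPKM, and the interval of its log2 ratio ran from 1.24 to 1.53. CG5804, now Acbp5, an acyl-CoA binding protein by its name, was listed at 0 in the control and measured 5.03 FPKM in RNAi larvae and 0 FPKM in the Yki library. CG1887, now debris buster (dsb), a scavenger receptor of the CD36 type, measured 1.83, 5.06 and 0.0232 FPKM. CG13624, now REPTOR, a transcription factor that acts when TORC1 signalling is low, measured 5.50, 12.7 and 10.5 FPKM. Of these, REPTOR alone exceeded 10 FPKM in the Yki library.

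Members of 4 gene families were compared with the rest of their family, all of them chosen after the values were seen. Over all kept genes 3.7% were higher and 17% lower, and the choice of families through their members fixes part of each count of higher genes. The tables hold 15 Jhbp and takeout genes, and 10 were kept. Higher were 4, all of them members (Jhbp12, Jhbp2, Jhbp7 and CG14457, now Jhbp6, at 1.36, 5.63 and 0 FPKM), and 0 were lower. The family's median log2 ratio was 0.52, compared with -0.03 over all kept genes. The takeout gene (to) itself measured 0.991 FPKM in control larvae and 2.18 FPKM in RNAi larvae, Jhbp1 measured 17.4 and 22.7 FPKM, and Jhbp5 measured 11.5 and 12.8 FPKM. The called genes include the 3 most abundant of the family in the RNAi library.

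The Vajk genes, all 4 of them kept, gave 2 higher and 0 lower. CG16884, now Vajk3, measured 0.954, 9.09 and 49.4 FPKM in the order control, RNAi, Yki and CG16885, now Vajk2, measured 1.75, 6.60 and 37.4 FPKM. They lie next to each other on chromosome 2L, from 13932559 to 13947476. Vajk4 measured 11.3, 22.2 and 0.504 FPKM, just under the limit at a log2 ratio of 0.91, and with equal upper quartiles 3 of the 4 were higher. The pair on 2L thus had clear levels in the Yki library, while Vajk4 was under 1 FPKM there.

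UDP-glycosyltransferases attach sugars to small lipophilic molecules, among them pigments, hormones and toxins. Of 35 Ugt genes 17 were kept, 4 were higher and 1 was lower, with a median log2 ratio of 0.23. The higher ones were the members Ugt50B3 (CG30438, at 2.29, 8.06 and 1.09 FPKM), Ugt49C1 (CG15661, at 0.515, 2.23 and 0.176 FPKM) and Ugt301D1 (CG10178, at 2.83, 7.10 and 0.257 FPKM), with the named gene Ugt86Da. The lower one was CG18869, now Ugt305A1, at 40.3 and 12.1 FPKM in the Act libraries. The family therefore had calls in both directions.

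Bomanins are short secreted peptides of the immune response downstream of Toll. Of 11 genes 7 were kept, 4 of them higher and 3 lower, and in the Yki library all 11 were listed at 0. All 7 were low in the control, at 3.72 FPKM or less, so these calls are imprecise. BomS1, BomS2 and BomS5 were listed at 0 there and were kept only through their RNAi level. BomS5 (CG15065), the only member of the family, measured 3.95 FPKM in the RNAi library. Its transcript of 218 nt was too short for a fragment count. A further member, edin (CG32185), encodes a secreted protein of the immune response, and it measured 4.74, 11.4 and 0 FPKM. Its interval ran from 0.15 to 2.82 on the log2 scale, from 6 control fragments. In a list of immune genes that shares some Bomanins, 10 of 19 kept genes were higher and 0 lower, with a median log2 ratio of 1.10. That list holds BomS1, BomS2 and BomS3 but none of the 3 lower Bomanins, so its count of lower genes depends on that choice. BomS1 and BomS2 entered it only through their RNAi level, which raises its count of higher genes and its median.

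Named cuticle protein genes, none of which can be a member, gave 23 higher and 3 lower among 53 kept of 120, with a median log2 ratio of 0.75, where 3.7% of all kept genes were higher and 17% lower. Cpr100A had the largest ratio among them, at 35.4 FPKM in control larvae and 1224 FPKM in RNAi larvae. The most abundant of them, Cpr72Ea, stayed within 2-fold at 4075 and 4355 FPKM. Twdlalpha had the lowest ratio, at 32.9 and 6.07 FPKM. Of the higher ones, Cpr65Ec, Edg84A, Lcp65Ag1, Lcp3 and Lcp65Af were listed at 0 in the control, and Ccp84Ag, Ccp84Ab and Ccp84Aa were under 1 FPKM. These were kept only through their RNAi level, which raises both the count and the median. Chitin genes gave 8 higher and 0 lower of 24, with a median of 0.72, and with equal upper quartiles 12 were higher. The most abundant of them, Cht5, measured 1925 FPKM in control larvae and 1389 FPKM in RNAi larvae. Gasp, a chitin-binding protein of the tracheae, measured 32.4, 179 and 137 FPKM in the order control, RNAi, Yki. A tracheal list, which shares Gasp, serp and verm with the chitin genes, had 2 of 5 higher and summed levels of 98.4, 320 and 551 FPKM. The 2 were Gasp and serp, already counted among the chitin genes. The tracheal genes not shared, trh and btl, had log2 ratios of 0.36 and 0.22. Of 29 kept ecdysone response genes 5 were higher, and of 8 tanning genes 1 was, counts to be read beside the 3.7% over all kept genes. Of 7 kept neuron genes 3 were higher, with summed levels of 38.8, 76.6 and 10.5 FPKM. Of 10 midgut genes only 2 were kept, the lysozyme genes LysB and LysD, and both were higher. Of 6 salivary gland genes 2 were kept and 1 was higher, Sgs7, listed at 0 in the control and at 3.48 FPKM in RNAi larvae. The remaining genes of both lists had means under 1 FPKM, apart from Sgs5, so nothing is read from these counts about either tissue. Hemocyte genes had 0 of 6 called either way and muscle genes had 0 of 10 higher and 3 lower, and the part of any of these cell types in the members' ratios was not tested.

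**Figure D4:**
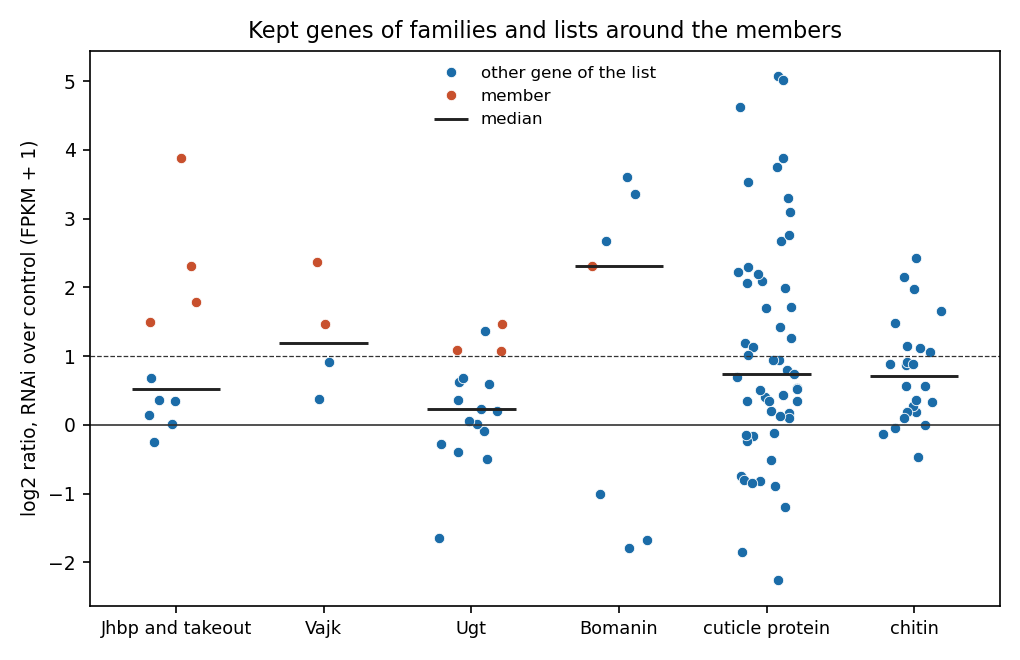
Log2 ratio of RNAi over control, on FPKM + 1, for each kept gene of the Jhbp and takeout, Vajk, Ugt and Bomanin families and of the cuticle protein and chitin lists, with members in orange, other genes in blue and a bar at the median. Points are spread sideways at random, and the dashed line is the 2-fold limit. The medians are 0.52 for the Jhbp family, 0.23 for the Ugt family, 0.75 for cuticle proteins and 0.72 for chitin genes.

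Positions were not used by the rule. Of the 216 members 196 could be placed on the genome, all of them annotated as protein coding. Of these, 61 lie on chromosome arm 3L, or 31.1%, compared with 19.7% of the other placed genes with only a CG number. The shares on the other arms were 26.0% and 24.0% on 3R, 16.8% and 20.0% on 2R, 13.3% and 19.3% on 2L, and 11.7% and 16.6% on X. Without the members of the 5 stretches described next, the share on 3L was 26.2%.

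More of the members than of the other genes had a member beside them. Of the 196 placed members 23 were directly next to another member, or 11.7%, compared with 2.86% of the other genes with only a CG number. With a distance of 10 kb between starts the shares were 20.4% and 4.64%, and with 20 kb they were 28.6% and 8.33%. These shares have no test. The 23 fell into 11 runs, 10 of them pairs. The longest was CG13047 (0, 5.49 and 0 FPKM in the order control, RNAi, Yki), CG13046 (37.9, 132 and 1.34 FPKM) and CG13045 (1.87, 5.14 and 0.159 FPKM) on 3L.

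Of the 21 genes that flank these runs 16 were kept, and their log2 ratios ran from -1.68 to 0.71 with a median of 0.07. A kept flanking gene with only a CG number cannot be 2-fold higher, since it would then belong to the run, so nothing is read from the absence of higher calls among them. Beside the run of 3, CG4962 was lower at 6.48 and 1.42 FPKM in the Act libraries. Neighbouring genes with only a CG number often arose by duplication and can share reads where they are near-identical, so single values within a cluster are uncertain.

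Chaining members whose starts lie within 20 kb of each other, a distance chosen after the values were seen, gave 5 stretches with at least 3 members and 24 members in all. Of these 24, 17 were under 1 FPKM in the Yki library, beside 120 of all 216 members and 41.5% of the other kept genes with only a CG number. The longest stretch lies on 3L from 16264713 to 16319526 and holds 24 genes in 54.8 kb, 20 of them kept and 10 of them members. Its members ranged from CG13068, at 40.9, 194 and 6.86 FPKM in the order control, RNAi, Yki, and CG13051, at 42.4, 163 and 0.336 FPKM, to CG13043, at 0, 2.57 and 0 FPKM. CG34248, CG13049, CG13047, CG13043 and CG13041 were under 1 FPKM in the control and were kept only through their RNAi level. The 10 kept genes of the stretch that are not members had log2 ratios from -1.63 to 0.61. The most abundant gene of the stretch, CG13067, was no member at 1312 and 2008 FPKM, and CG13065 measured 154 and 91.1 FPKM. Members and genes that were within 2-fold or lower therefore alternate along this stretch.

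The stretch on X, from 17206407 to 17223815, holds 8 genes, and all 5 that were kept are members. They are CG32564 (0.132 and 2.73 FPKM in the control and RNAi libraries), CG12995 (0.531 and 4.30 FPKM), CG5162 (0.418 and 10.8 FPKM), CG12998 (49.2 and 1654 FPKM) and CG34327 (0.682 and 4.81 FPKM). CG12998 is thus much more abundant than its neighbours. CG32564, CG12995, CG5162 and CG34327 were under 1 FPKM in the control and were kept only through their RNAi level. That all kept genes here are members is therefore in part fixed by the filter, and nothing is read from it. CG5162 was the only one of the 5 above 1 FPKM in the Yki library, at 4.09 FPKM. On 3L from 21741534 to 21770534, CG14572 (13.8, 67.3 and 5.90 FPKM) and CG14565 lie beside Syn1 and CG14564 lies within it. Syn1 itself stood at 17.7 and 22.1 FPKM in the Act libraries.

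The remaining stretches hold 3 members each. On 2R they are CG6426, CG6429 and CG6472 (0.505, 2.08 and 0 FPKM), with CG6421 between the first pair at 2.11 and 3.01 FPKM. On 3L from 8202792 to 8222953 they are CG13679 (10.1, 80.2 and 0.814 FPKM), CG13674 (4.30, 48.5 and 0 FPKM) and CG13678 (74.8, 170 and 7.64 FPKM). In this stretch CG8006 was lower, at 22.5 and 7.26 FPKM in the Act libraries.

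**Figure D5:**
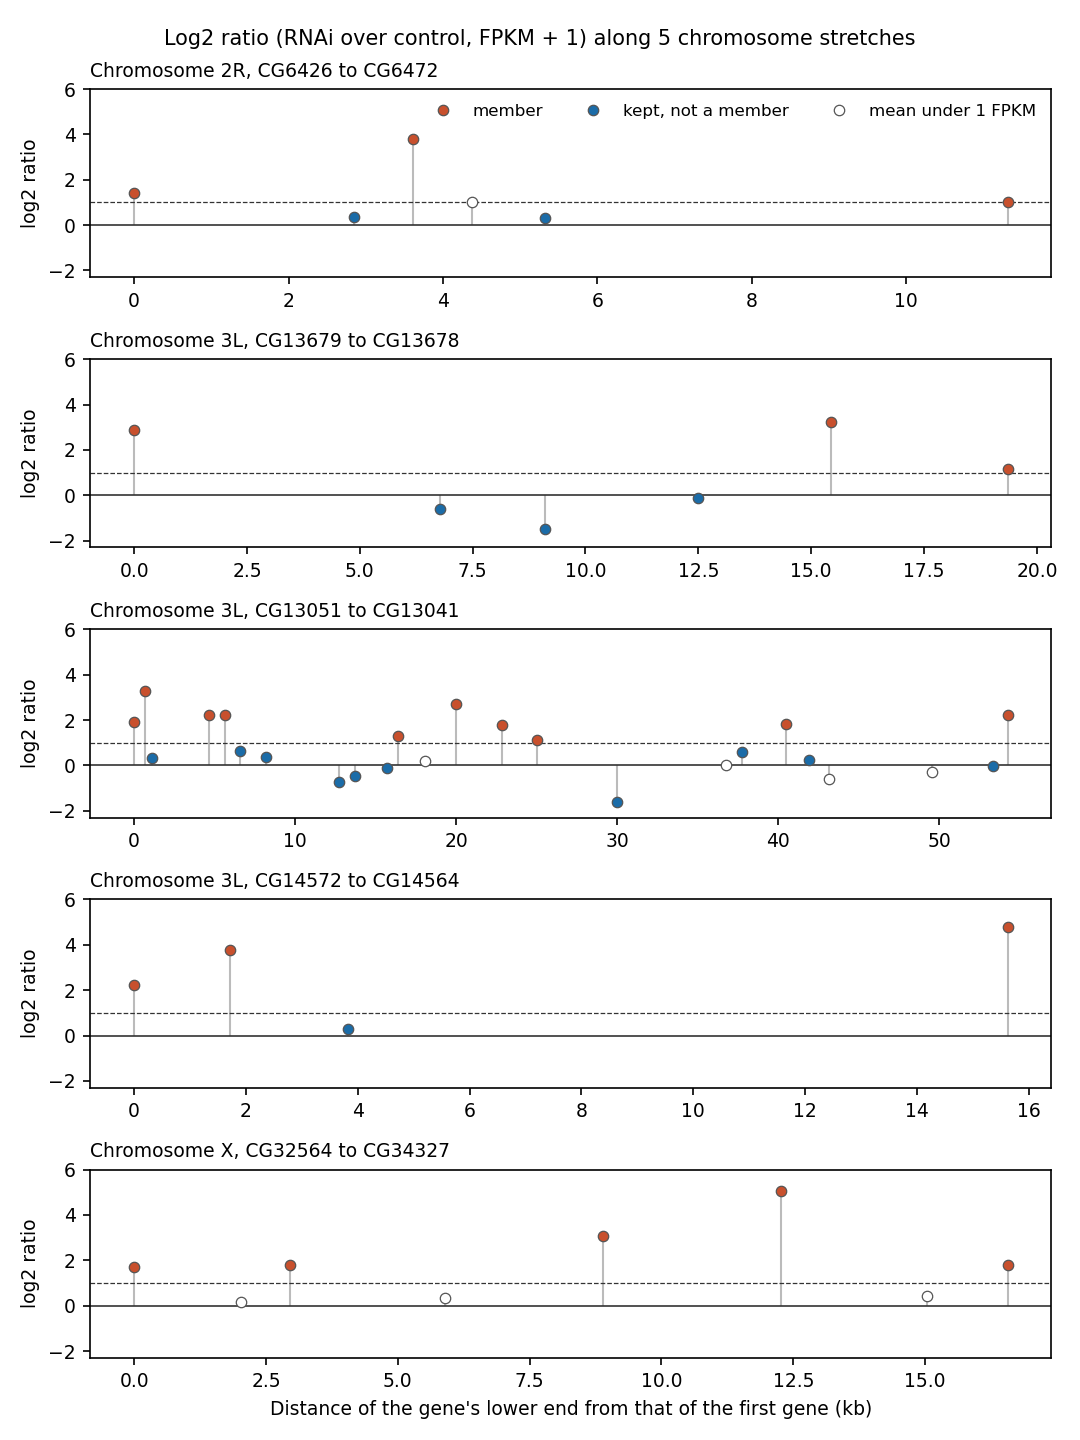
Log2 ratio of RNAi over control, on FPKM + 1, for each gene along the 5 stretches, plotted against the distance of its lower end from that of the first gene in kb. Members are orange, other kept genes blue and genes with a mean under 1 FPKM open, and the dashed line is the 2-fold limit. On X all 5 kept genes are orange, while in the longest stretch, on 3L, 10 of 20 kept genes are. In both stretches some members were under 1 FPKM in the control and were kept only through their RNAi level.

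The transcripts of members were a little shorter than those of the other genes. The longest transcript had a median of 1383.5 nt in members and 1628 nt in the other kept genes with only a CG number. Single-exon genes made up 20.4% and 17.2%. Other genes under 1 FPKM in the Yki library, which resemble the members in that respect, had a median of 1389 nt, and 26.6% of them had a single exon.

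The exons of 52 members share bases with another gene, or 26.5% of those placed, compared with 36.9% of the other kept genes with only a CG number. Of the partners 35 were kept, 0 of them higher and 3 lower, beside 3.7% and 17% over all kept genes, with a median log2 ratio of -0.07. Members whose number is now an older name of another gene are shown in the table as separate genes, and whether their fragments lie in exons of that gene was not tested. CG14425, now an older name of the sex-determination gene Sxl, measured 18.2, 62.8 and 43.0 FPKM in the order control, RNAi, Yki, while Sxl as listed stood at 44.0 and 44.3 FPKM in the Act libraries. CG15313 (21.0 and 56.0 FPKM) and CG15314 (12.6 and 26.4 FPKM) are now older names of the chitinase gene Cht6, which as listed measured 4.45 and 14.2 FPKM. Cht6 was thus higher together with both, and Sxl was not higher with CG14425. Bx (7.32 and 11.0 FPKM) and rdgC (3.65 and 5.47 FPKM), which hold CG15048 and CG13814 as older names, were within 2-fold too.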

How the data were processed

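RNA of pooled larvae was sequenced in 3 libraries, 1 a group. The authors deposited FPKM values for 13990 genes in 2 separately normalized tables, the Act libraries in 1 and the Yki library in the other, so no ratio was formed between tables. Per the labels' protocols, 4 µg of total RNA was depleted of ribosomal RNA and made into TruSeq RNA v2 libraries, a kit that does not mark strand. Per the submitters' processing notes, CASAVA 1.4, TopHat2 2.0.12, Cuffdiff 2.2.1 and the build dm6 were used, with no roles given. Neither the annotation nor the way libraries were scaled to each other is given in the sources used here.

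Log2 ratios used a pseudocount of 1 FPKM, which understates changes of low genes, and a minimum mean of 1 FPKM over the Act libraries. Called means at least 2-fold. Genes with an FPKM of 0 are described as listed at 0, since without counts a failed estimate looks the same.

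Depth was read from the steps of low FPKM values over 4174 genes with a single transcript longer than 1000 nt, with an effective length 200 nt shorter than the transcript. For control, RNAi and Yki 81.7%, 84.5% and 88.8% of low values lay within 0.2 of a whole fragment, where chance gives 40%. Fragments were computed for single transcripts longer than 400 nt, and ratio intervals are exact conditional binomial 95% intervals. The procedure was tested on simulated data.

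Positions came from the Ensembl 115 annotation of Release 6, which has the coordinates of dm6, and 13387 genes were placed. Current names came from the RefSeq Release 6 table, which matched 13745 symbols, or 98.2%. A CG number that now occurs only among a larger gene's older names was left unplaced.

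Named are the 5 genes CG11413, CG12998, CG34454, CG13722 and CG13618, the 15 members with the largest ratios, the 10 highest in the RNAi library, the 5 highest in the Yki library, members of runs of 3 with their neighbours, 3 genes on each side of the fold limit, up to 3 highest and lowest genes of a list, and Aac11. Members with a current name, those in stretches, those now older names of other genes or with families around them were named after their values were seen. The members and lists were chosen with earlier results of these data known. Comparisons of protein sequences and searches for promoter motifs were planned and not run. Python 3.11.15, pandas 2.3.3, scipy 1.17.1 and matplotlib 3.10.9 were used.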

Additional observations from a re-analysis of the deposited data

How the results depend on the processing

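No paired analysis was possible because each group has 1 library, and for the same reason no library could be left out. With a pseudocount of 5 FPKM 110 genes with only a CG number were higher, or 1.73% of those kept, and 245 genes in all. With equal upper quartiles 405 were higher, or 6.32%, and 819 in all, and since this scaling raises every ratio, all 216 members were among the 405. A minimum mean of 5 FPKM left 128. Among genes that reach 1 FPKM in the Yki library, an alternative added after seeing the data, 96 were higher and 204 in all, and higher genes were 45.5% of the calls because only 244 lower genes remained. The other settings gave 144 to 288 higher genes with only a CG number: a pseudocount of 0.1 FPKM, a median log2 ratio of 0, equal sums, no filter, no genes at 0 in the control and, added later, a correction for transcript length and the removal of overlapping or unplaced genes. The share of members counted as low in the Yki library was 48.1% under 0.5 FPKM and 73.1% under 5 FPKM. With 10 kb between starts in place of direct neighbours, also added later, 40 members had another member beside them instead of 23, and among kept genes 33 did. With the correction for transcript length 178 of the 196 placed members stayed at least 2-fold higher. A pseudocount of 0.1 FPKM and equal upper quartiles both raise the ratio of every member. That all 34 named members stayed at least 2-fold higher under these settings was therefore fixed in advance. With a pseudocount of 5 FPKM 4 of the 34 were under 2-fold, CG13045, CG15207, CG17025 and CG34244, at log2 ratios of 0.56, 0.45, 0.34 and 0.55. Of cuticle protein genes 26 in place of 23 were higher with 0.1 FPKM or with equal upper quartiles. The alternatives for protein matches were not run. Depth limits the control most: 25 of 90 members with fragment counts had fewer than 3 control fragments.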
